A study of Mus musculus with 49 samples.

Results

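The comparison described here is that of an antibody to mouse IL-12p40 with phosphate-buffered saline (PBS) in the inflamed mouse colon. Its members were the 13 colon libraries whose labels name dextran sulfate sodium (DSS) with either injection, 7 with the antibody and 6 with PBS, of 49 samples in the series, and all 15731 genes that passed a filter on low counts. Every mouse, controls included, was labelled as a DITRA model on a mixed background of 75% C57BL/6NTac and 25% 129S6/SvEvTac. DITRA is a deficiency of the IL-36 receptor antagonist, an inflammatory disease of people, and no group without the model was among the colon samples. DSS in the drinking water damages the colon epithelium and is a common model of colitis. The other colon groups served as reference points, 5 libraries labelled with water and PBS and 8 labelled with DSS and an antibody to the human IL-36 receptor. The age of the animals, the dose and timing of DSS and antibodies, and the piece of colon taken were not given in the sources used here. Labels gave each library its own animal-like number but did not state that each was a separate animal, so p-values measure the spread between libraries. In the main fit that spread was estimated over all 26 colon libraries together, so the reference groups contribute to each p.

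IL-12p40, the product of Il12b, is the subunit shared by the cytokines IL-12 and IL-23, so an antibody to it blocks both. IL-12 drives interferon gamma production by T and NK cells, whereas IL-23 sustains lymphocytes that make IL-17A, IL-17F and IL-22. IL-17 and IL-22 in turn act on epithelial and stromal cells, which release neutrophil chemokines and antimicrobial proteins. Antibodies to p40 are used to treat inflammatory bowel disease and psoriasis.

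The 13 libraries held 15.51 to 18.43 times 1000000 counts each, and the gene with the most counts took 1.97% to 3.91% of a library. Genes of colon tissue were present in each of them: the epithelial adhesion gene Epcam ran from 431 to 1400 CPM (counts per 1000000 counts of the library) and the smooth muscle myosin gene Myh11 from 830 to 3090 CPM. Il1f5, which encodes the IL-36 receptor antagonist, had 0 counts in all 26 colon libraries, which allows up to 3 counts per library, a limit from counting error only. Some libraries stood apart. On the first principal component of all colon libraries, which held 36.7% of the variance, PBS replicates 5 and 6 lay at 86.8 and 106.7, while the other 19 DSS libraries lay between -26.9 and 40.7. The summed level of 7 squamous epithelium genes was 3000 CPM in PBS replicate 6, while PBS replicates 1 to 4 lay between 5.41 and 16.2 CPM and antibody libraries between 7.74 and 35.9 CPM. The summed level of 6 liver genes was 1130 CPM in anti-IL-12p40 replicate 5. The T and NK cell marker sum was 28.3 CPM in PBS replicate 2 and 103 to 267 CPM in the 12 others.

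In the fit of all 4 colon groups, RNA for neutrophil products, neutrophil chemokines and matrix-degrading enzymes was lower under anti-IL-12p40 than under PBS. So was RNA for cytokines of the IL-6 and IL-1 families. The calls for the chemokines and for Il1a and Il1b were lost when single PBS libraries were left out. So were those for other neutrophil and matrix genes, among them Cxcr2, Trem1, Ltf, Mmp3, Mmp9, Mmp10, Timp1 and Ptgs2. The 24 genes that kept their call whichever library was left out are listed below. Some other fits called no gene, as given below. Of 15731 genes tested, 181 were called (1.15%), of which 178 were lower (1.13%) and 3 were higher (0.0191%), in edgeR's quasi-likelihood test at an adjusted p under 0.05. Among the 178 lower genes, 155 differed by at least 2-fold and 85 by at least 4-fold, and their median log2 fold change was -1.9. The median over all genes tested was 0.002, with 49.6% of genes negative. At an unadjusted p under 0.05 there were 1897 genes (12.1%). The strongest evidence was for Lcn2, with an adjusted p of 0.0111 by edgeR. Since the tissue was sequenced whole, fewer cells of a type and less RNA per cell cannot be told apart.

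**Figure D1:**
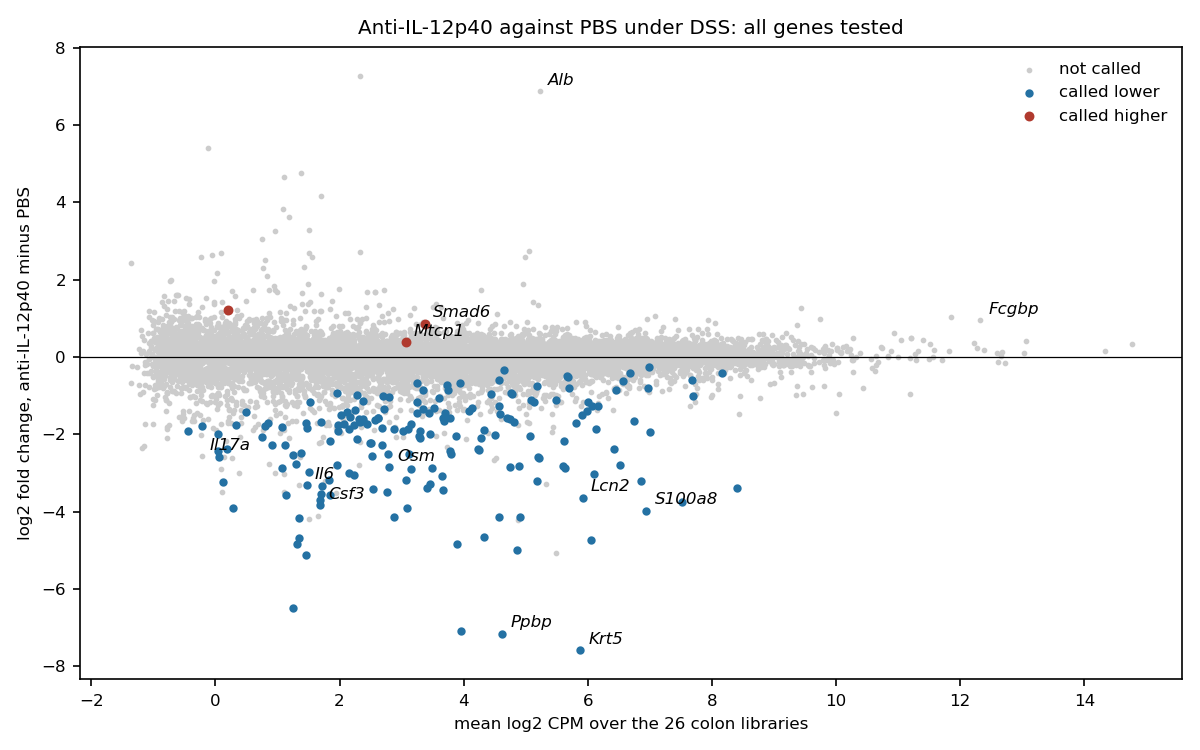
Log2 fold change (anti-IL-12p40 minus PBS, vertical axis) against mean log2 CPM over the 26 colon libraries (horizontal axis) for the 15731 genes tested, 1 point a gene. The 178 genes called lower (blue) spread down to -7.59 for Krt5, while the 3 called higher (red) lie at 1.23 or below.

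The number of calls rested on which libraries and which fit were used. No gene was called when the fit held only the compared groups (edgeR, 1284 genes at an unadjusted p under 0.05) or in limma-voom with sample weights (1064 genes at an unadjusted p under 0.05). In the fit of the compared groups the spread came from their 13 libraries alone, and the lowest edgeR adjusted p was 0.316. DESeq2's Wald test called 325 lower and 30 higher. Leaving out PBS replicate 5 or PBS replicate 6 left 34 lower calls in either case and PBS replicate 2 left 82. Without PBS replicates 1, 3 or 4 there were 392, 312 and 273 lower calls. Leaving out anti-IL-12p40 replicate 1 left 82, and leaving out replicates 2, 3, 4 or 5 left 39 to 45. Leaving out PBS replicates 5 and 6 together left none, with 1262 genes at an unadjusted p under 0.05 in edgeR and a lowest adjusted p of 0.0733. Without those replicates 172 of the 175 formerly called genes still tested remained negative, with a median log2 fold change of -1.1. The remaining libraries had helped to choose these genes, so a kept sign is no separate support. Of the 178 genes, 24 were called lower in each of the 13 fits that left out 1 library. These were Lcn2, Stc1, Alox5ap, Asprv1, Cstdc4, Cstdc5, Ifitm6, Il11, Inhba, Mmp12, Mmp8, Osm, Retnlg, Rnd1, Il1r2, Il6, Fpr1, Mmp13, S100a8, Csf3, Dio2, Nfe2, S100a9 and Stfa2l1. The other lower genes lost their call or fell under the filter in at least 1 of these fits.

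The 6 PBS libraries differed widely among themselves. The highest PBS value of a lower gene was in replicate 5 for 79 genes, in replicate 6 for 57, in replicate 2 for 41 and in replicate 1 for 1. The lowest was in replicate 1 for 87 genes, in replicate 3 for 58, in replicate 4 for 28 and in replicate 2 for 5. Among the antibody libraries, replicate 7 was the highest for 82 genes and replicate 6 for 62. The groups did not overlap at all for 6 of the 178 genes, Osm, Cstdc4, Sox11, Tmem40, Bdnf and Ckap4. Over all genes tested 0.127% did not overlap, and 0.0572% were lower without overlap. The 178 genes were picked by p from these same values, so a lack of overlap among them is no separate support. For 101 of the 178 genes at least 4 of 6 PBS libraries lay above the highest antibody library.

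Of 20 neutrophil markers measured, which include granule proteins, cytosolic proteins and receptors, 11 were lower and the other 9 did not pass, and all 20 had a negative log2 fold change, with a median of -2.69. Over all genes tested 1.13% were called lower and 49.6% were negative, shares that apply to each list below as well. The lists were chosen with earlier results of these data known. The lower ones were S100a8, S100a9, Cxcr2, Trem1, Fpr1, Mmp8, Mmp9, Retnlg, Ltf, Clec4e and Il1r2. The summed marker level was 293, 2140 and 4770 CPM (lowest, median and highest) with PBS and 82, 225 and 515 CPM with the antibody. PBS replicates 2, 5 and 6 held sums of 4770, 3560 and 4550 CPM, and replicates 1, 3 and 4 held 293, 475 and 730 CPM, the first 2 of which lay within the antibody range.

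Lcn2 encodes lipocalin-2, a siderophore-binding protein of neutrophils and stressed epithelium, and lies at chr2:32384637-32387739 (mm10). Its level was 45.8, 548, 35.3, 92.2, 348 and 295 CPM in PBS replicates 1 to 6. With the antibody it was 19.5, 14.7, 6.51, 24.7, 7.39, 35.4 and 19.8 CPM in replicates 1 to 7. The groups touched only at antibody replicate 6 and PBS replicate 3, and 5 of 6 PBS libraries lay above every antibody library. Lcn2 fell by 3.64 on the log2 scale (SE 0.552, edgeR adjusted p = 0.0111), with a value of -3.29 without PBS replicates 5 and 6 (adjusted p = 0.0733). In the 5 water libraries its median was 0.961 CPM.

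S100a8 and S100a9, neighbours on chromosome 3, encode the subunits of calprotectin, a zinc-binding neutrophil protein measured in stool as a sign of gut inflammation. S100a8 was at 39.3, 1170, 55.5, 151, 760 and 684 CPM in PBS replicates 1 to 6 and at 16.9, 15.7, 3.83, 51.1, 3.46, 70.9 and 50.1 CPM in antibody replicates 1 to 7. PBS replicates 1 and 3 lay below the highest antibody library, replicate 6, and the other 4 lay above it. S100a8 fell by 3.97 (log2, SE 0.746, edgeR adjusted p = 0.0143). S100a9 fell by 3.75 (log2, adjusted p = 0.0145), from a median of 683 CPM to 30.5 CPM.

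Mmp8, the neutrophil collagenase, and Retnlg, a secreted resistin-like protein of neutrophils, moved like the calprotectin genes. Mmp8 ranged from 3.95 to 254 CPM with PBS (median 48.0) and from 0.349 to 7.21 CPM with the antibody (median 2.68). It fell by 4.65 (log2, SE 0.787, edgeR adjusted p = 0.0128), with a value of -3.84 without PBS replicate 2 (adjusted p = 0.0299). Retnlg fell by 4.14 (log2, adjusted p = 0.0128), with medians of 101 and 5.74 CPM. For both genes 4 of 6 PBS libraries lay above all antibody libraries, and PBS replicates 1 and 3 did not.

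Of the receptors on the marker list, Il1r2, Fpr1, Cxcr2, Trem1 and Clec4e were lower, and Csf3r, the receptor of G-CSF, was not called (29.7 to 300 CPM with PBS, 11 to 90 CPM with the antibody, log2 fold change -1.80, edgeR adjusted p = 0.110). Il1r2, the decoy IL-1 receptor, fell by 2.87 (log2, SE 0.529, edgeR adjusted p = 0.0129), from a median of 23.2 to 4.86 CPM, with a value of -2.15 without PBS replicate 2 (adjusted p = 0.0373). Fpr1, which senses bacterial formyl peptides, fell by 2.80 (log2, adjusted p = 0.0143). Cxcr2, the receptor of the chemokines described next, fell by 2.41 (log2, adjusted p = 0.0215), and Trem1, an amplifying receptor of myeloid cells, by 3.28 (log2, adjusted p = 0.0154). Both lost their calls without PBS replicate 5, with values of -1.96 (adjusted p = 0.0976) and -2.54 (adjusted p = 0.0745). Ly6g, often used to sort mouse neutrophils, behaved differently: it ran from 43.3 to 179 CPM with PBS and from 22.4 to 79.6 CPM with the antibody, with a log2 fold change of -0.47 (SE 0.493, edgeR adjusted p = 0.742). Its median in water-fed colon was 54.3 CPM, against 0.107 CPM for S100a8 and 0.125 CPM for S100a9.

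**Figure D2:**
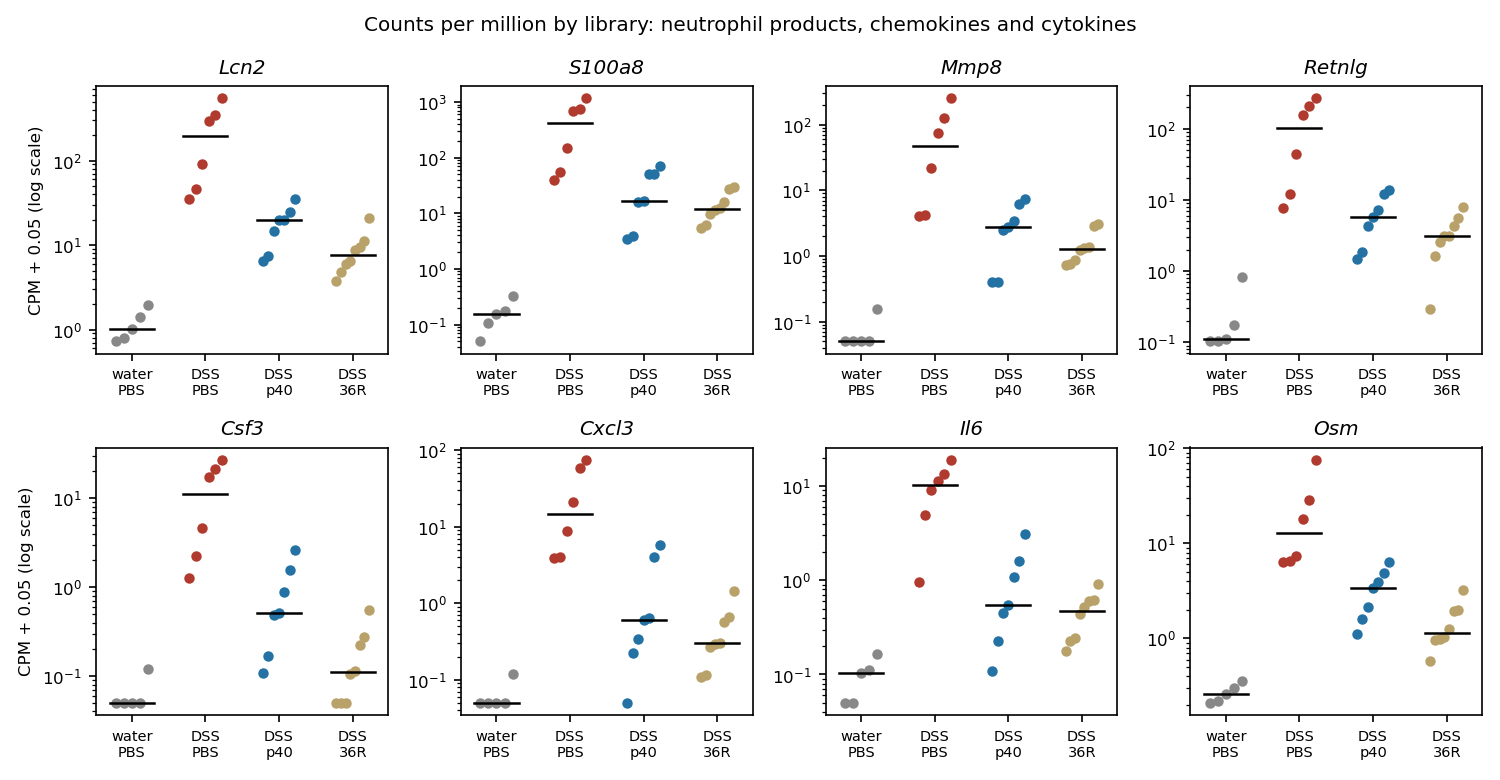
CPM plus 0.05 (vertical axis, log scale) of 8 genes in each colon library (points) by group, with the median as a bar. p40 is the group given anti-IL-12p40 and 36R the group given the antibody to the human IL-36 receptor. For Lcn2, PBS libraries span 35.3 to 548 CPM and anti-IL-12p40 libraries 6.51 to 35.4 CPM, and for Osm the groups do not overlap.

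Several lower genes outside the marker list, chosen after their values were seen, also belong to neutrophil biology. Padi4, the enzyme that citrullinates histones in neutrophils, fell by 3.04 (log2, edgeR adjusted p = 0.0154). Hp, the haemoglobin-binding acute-phase protein haptoglobin, fell by 3.03 (log2, adjusted p = 0.0192), from a median of 257 to 25.1 CPM. Padi4 and Hp lost their calls without PBS replicate 5 (adjusted p = 0.065 for each) or replicate 6 (adjusted p = 0.0513 and 0.0693). Nfe2, a transcription factor of the myeloid and platelet lineages, fell by 2.48 (log2, adjusted p = 0.0144). The stefin A genes encode small cysteine protease inhibitors abundant in neutrophils. All 4 that were measured, on a list added after the data were seen, were lower: Stfa2, Stfa2l1, Cstdc4 and Cstdc5, which lie together on chromosome 16 between 36156811 and 36408363. Cstdc4 was at 1.46 to 25.0 CPM with PBS (median 5.54) and at 0 to 1.29 CPM with the antibody (median 0.499). It fell by 4.15 (log2, SE 0.724, adjusted p = 0.0128) with no overlap of the groups. The counts of these genes were not whole numbers in 10 to 17 of 26 libraries, so reads were shared among related copies and the split between them is uncertain.

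Alox5ap and Ltb4r1, chosen after their values were seen, and Alox5, of the enteroendocrine and tuft cell list, were lower. Alox5ap, which presents arachidonic acid to 5-lipoxygenase, was at 12.9, 119, 13.7, 19.8, 72.0 and 79.8 CPM in PBS replicates 1 to 6. It was at 5.87 to 16.1 CPM (median 8.45) with the antibody, and 4 of 6 PBS libraries lay above that range. It fell by 2.37 (log2, SE 0.410, edgeR adjusted p = 0.0128). Alox5, the lipoxygenase itself, fell by 1.6 (log2, adjusted p = 0.048), and Ltb4r1, a leukotriene B4 receptor, by 1.83 (log2, adjusted p = 0.0188). Both lost their calls without PBS replicate 5 (adjusted p = 0.16 and 0.0745) or replicate 6 (adjusted p = 0.168 and 0.0789). The water medians of Alox5ap and Alox5 were 5.80 and 4.56 CPM.

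Of 8 neutrophil chemokine and growth factor genes measured, 6 were lower, against 1.13% of all genes tested, and the list median was -3.13. Csf3 encodes G-CSF, the growth factor of granulocytes, and Cxcl1, Cxcl2, Cxcl3, Cxcl5 and Ppbp encode CXC chemokines, secreted proteins that draw neutrophils through CXCR2. Csf3 was at 2.16, 27, 1.2, 4.60, 21.2 and 17.3 CPM in PBS replicates 1 to 6. With the antibody it was at 0.0587 to 2.59 CPM (median 0.459), and PBS replicates 1 and 3 lay below the highest of these values. Csf3 fell by 3.84 (log2, SE 0.733, edgeR adjusted p = 0.0144).

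The chemokine genes sit together on chromosome 5, between 90759298 and 90905938. Cxcl3 was at 3.85, 14.9 and 75.7 CPM (lowest, median and highest) with PBS and 0, 0.562 and 5.73 CPM with the antibody. It fell by 4.14 (log2, SE 0.830, edgeR adjusted p = 0.0156), and Cxcl2 fell by 3.43 (log2, adjusted p = 0.0285). Cxcl5 fell by 2.82 (log2, adjusted p = 0.0347) and Cxcl1 by 2.0 (log2, adjusted p = 0.0467). These calls were lost without PBS replicate 5 and also without PBS replicate 6. Without replicate 5, Cxcl2 was at -2.33 (adjusted p = 0.162), Cxcl3 at -3.59 (adjusted p = 0.0745), Cxcl5 at -2.49 (adjusted p = 0.118) and Cxcl1 at -1.52 (adjusted p = 0.196). Without replicate 6 they were at -3.52 (adjusted p = 0.0567), -3.81 (adjusted p = 0.0563), -2.50 (adjusted p = 0.146) and -1.99 (adjusted p = 0.135) in the same order. Cxcl1 and Cxcl5 also lost their calls without PBS replicate 2, with adjusted p of 0.0963 and 0.0638. Ppbp, a chemokine of platelets, rested on PBS replicate 6, which held 615 CPM against at most 7.46 CPM in the 12 others: its log2 fold change was -7.15 with that library (adjusted p = 0.0155) and -1.84 without it (adjusted p = 0.562).

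The upstream sequences of 4 of these lower cytokine genes are shown because each holds a match to an NF-kB motif, a binding motif of the main transcription factor of inflammatory cytokine genes. The sequences are the 250 bases before the annotated start, from RefSeq (GRCm38.p6, the assembly of mm10), on the plus strand, with matches to GGG, any 2 bases and TTTCC, on either strand, in capitals. The windows are chr5:90890995-90891244 for Cxcl1, chr5:90903649-90903898 for Cxcl2, chr5:90785851-90786100 for Cxcl3 and chr5:30012864-30013113 for Il6.
Cxcl1: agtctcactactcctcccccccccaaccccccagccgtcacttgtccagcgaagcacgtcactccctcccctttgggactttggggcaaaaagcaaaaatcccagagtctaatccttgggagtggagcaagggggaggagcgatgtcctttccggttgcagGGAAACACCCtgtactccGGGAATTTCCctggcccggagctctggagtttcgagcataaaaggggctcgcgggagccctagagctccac
Cxcl2: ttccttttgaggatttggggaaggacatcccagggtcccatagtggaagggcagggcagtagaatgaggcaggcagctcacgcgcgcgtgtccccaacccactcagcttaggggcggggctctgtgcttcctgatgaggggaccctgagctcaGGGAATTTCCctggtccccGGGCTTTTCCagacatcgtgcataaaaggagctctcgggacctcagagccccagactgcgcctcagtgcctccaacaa
Cxcl3: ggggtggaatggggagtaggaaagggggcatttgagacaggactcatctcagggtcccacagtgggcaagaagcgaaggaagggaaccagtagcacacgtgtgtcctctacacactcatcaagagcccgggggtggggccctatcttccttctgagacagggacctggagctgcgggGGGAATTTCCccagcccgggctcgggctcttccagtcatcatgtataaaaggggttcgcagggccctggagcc
Il6: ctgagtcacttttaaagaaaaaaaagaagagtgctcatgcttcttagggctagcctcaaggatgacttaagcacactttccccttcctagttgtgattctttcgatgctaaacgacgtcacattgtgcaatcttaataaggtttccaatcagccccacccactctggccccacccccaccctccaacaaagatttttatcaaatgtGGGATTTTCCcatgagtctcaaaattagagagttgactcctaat
Cxcl1 and Cxcl2 each held 2 matches and Cxcl3 and Il6 held 1, all between 44 and 97 bases before the start. Of the 178 lower genes 130 had a window of this length, and 6 of them (4.62%) held a match: Cxcl1, Cxcl2, Cxcl3, Il6, Col17a1 and Fcgr3. Over all 12347 tested genes with a window the share was 1.49%. The windows of 6696 of these genes end at the annotated gene start, and the others lie before another start in the RefSeq table. For the STAT motif TTCNNNGAA it was 9 of 130 (6.92%) against 6.12%, for the interferon response motif (GAAA, any 2 bases, GAAA) 9 of 130 (6.92%) against 2.80%, and for the E-box CACGTG 7 of 130 (5.38%) against 7.92%. These are letter matches, not tested sites.

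Among 14 general inflammatory cytokine genes, 5 were lower (1.13% of all genes tested), Il6, Il11, Osm, Il1a and Il1b, and the list median was -0.92. Il6, Il11 and Osm encode cytokines of the IL-6 family, which signal through gp130 and STAT3. Il6 was at 8.98, 19, 0.902, 4.84, 13.5 and 11.3 CPM in PBS replicates 1 to 6 and at 1.04, 0.499, 0.174, 0.402, 0.0587, 3.08 and 1.54 CPM in antibody replicates 1 to 7. Only PBS replicate 3 lay within the antibody range. Il6 fell by 3.32 (log2, SE 0.619, edgeR adjusted p = 0.0140).

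Oncostatin M, encoded by Osm, is made by myeloid cells and acts on stromal cells. Osm was at 6.49, 18, 6.37, 7.35, 75.8 and 28.3 CPM in PBS replicates 1 to 6 and at 1.06 to 6.29 CPM (median 3.33) with the antibody. The groups were separate, though the gap between PBS replicate 3 and antibody replicate 6 was small. Osm fell by 2.84 (log2, SE 0.521, edgeR adjusted p = 0.0128), with values of -2.02 without PBS replicate 5 (adjusted p = 0.0479) and -1.54 without PBS replicates 5 and 6 (adjusted p = 0.375). Il11, a cytokine of stromal cells, fell by 3.07 (log2, adjusted p = 0.0128), from a median of 38.7 to 4.65 CPM, with fractional counts in 26 of 26 libraries.

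Il1b and Il1a, the IL-1 cytokines, fell by 2.80 (log2, edgeR adjusted p = 0.0345) and 3.39 (log2, adjusted p = 0.0188). Il1b was at 151, 73.4, 94.2, 78.7, 1010 and 494 CPM in PBS replicates 1 to 6 and at 10.4 to 116 CPM (median 28.9) with the antibody, so 3 PBS libraries lay within the antibody range. Without PBS replicate 5 the log2 fold change of Il1b was -1.99 (adjusted p = 0.160), and without PBS replicate 6 it was -2.63 (adjusted p = 0.116). Il1a was at -2.34 (adjusted p = 0.107) and -3.34 (adjusted p = 0.0513) without the same libraries. Nlrp3, chosen after its values were seen, the sensor of the inflammasome that releases mature IL-1 beta, fell by 2.10 (log2, adjusted p = 0.0348), but its log2 fold change was -1.26 without PBS replicate 5 (adjusted p = 0.211) and -2.03 without PBS replicate 6 (adjusted p = 0.126). Tnf was not called, at 4.12 to 27.9 CPM with PBS and 3.04 to 13.6 CPM with the antibody (log2 fold change -0.83, SE 0.397, adjusted p = 0.402).

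Chemokines of monocytes and T cells fell in part. Of 21 measured, 4 were lower (1.13% of all genes tested), Ccl2, Ccl3, Ccl4 and Ccl7, and the list median was -0.75. Ccl2 and Ccl7, ligands of the monocyte receptor CCR2, fell by 1.90 (log2, SE 0.442, edgeR adjusted p = 0.0347) and 1.62 (log2, adjusted p = 0.0425). Both lost their calls without PBS replicate 2, 5 or 6, with adjusted p of 0.0638, 0.117 and 0.168 for Ccl2 and 0.0997, 0.12 and 0.168 for Ccl7. Ccl4 and Ccl3, inflammatory chemokines of myeloid and T cells, fell by 3.56 (log2, adjusted p = 0.0145) and 2.99 (log2, adjusted p = 0.0208). Their annotated spans on chromosome 11 overlap, and how reads in the shared stretch were assigned was not tested. PBS replicate 5 held the highest values, 54.6 CPM of Ccl4 and 63.4 CPM of Ccl3, and without it the log2 fold changes were -2.16 (adjusted p = 0.0825) and -1.6 (adjusted p = 0.160).

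Of 20 monocyte and macrophage markers, Chil3 and Arg1 were lower (1.13% of all genes tested) and 18 were not called, with a median of -0.67. Chil3, a chitinase-like protein of myeloid cells, was at 640 CPM in PBS replicate 2 and at 3.57 to 31.5 CPM in the other PBS libraries, against 0.407 to 9.13 CPM with the antibody. Its log2 fold change was -4.99 (edgeR adjusted p = 0.0154), and -1.99 without PBS replicate 2 (adjusted p = 0.147). Arg1, the arginase of alternatively activated macrophages, was at 442 CPM in PBS replicate 6 and at most 57.6 CPM in the other PBS libraries. Its log2 fold change was -4.13 (adjusted p = 0.0433), and -2.04 without PBS replicate 6 (adjusted p = 0.492).

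Matrix remodelling genes formed the other large block. Of 21 measured, 10 were lower, among them Mmp3, Mmp8, Mmp9, Mmp10, Mmp12, Mmp13, Timp1, Spp1 and Ptgs2. All 21 had a negative log2 fold change, and the median was -1.48. Over all genes tested 1.13% were called lower and 49.6% were negative. Mmp8 and Mmp9 were also on the neutrophil list and Spp1 on the list of fetal-type and wound epithelium. Matrix metalloproteinases cut collagen and other matrix proteins, and 5 of their genes lie in a row on chromosome 9 between 7272514 and 7568486. Mmp13, a collagenase, was at 52.8, 403, 9.20, 54.4, 188 and 49.2 CPM in PBS replicates 1 to 6 and at 3.46 to 28.7 CPM (median 10.2) with the antibody. All PBS libraries except replicate 3 lay above the antibody range, and Mmp13 fell by 3.21 (log2, SE 0.606, edgeR adjusted p = 0.0143), with a value of -2.38 without PBS replicate 2 (adjusted p = 0.0390).

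Mmp12, the macrophage elastase, fell by 2.56 (log2, edgeR adjusted p = 0.0128), and its value without PBS replicates 5 and 6 was -2.59 (adjusted p = 0.0733). Mmp3, stromelysin-1, fell by 2.38 (log2, adjusted p = 0.0154), from a median of 209 to 41.2 CPM, and lost its call without PBS replicate 5 (-1.91, adjusted p = 0.0709). Mmp3, Mmp10 and Mmp12 had fractional counts in 24 to 26 of 26 libraries. Ptgs2, the inducible cyclooxygenase, fell by 2.87 (log2, SE 0.554, adjusted p = 0.0145), with 5 of 6 PBS libraries above the antibody range, but lost its call without PBS replicate 5 (-1.90, adjusted p = 0.0743). None of 20 collagen and fibroblast genes was called, though 19 of the 20 had a negative log2 fold change. Their median was -0.54, and 10 had an unadjusted p under 0.05 in edgeR, against 12.1% of all genes tested. DESeq2 called 1 and limma-voom 0, and Col12a1 came closest (log2 fold change -1.26, edgeR adjusted p = 0.0588).

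Stc1, Inhba and Dio2, genes outside the lists that were chosen after their values were seen, were called whichever library was left out. Stc1, the glycoprotein hormone stanniocalcin-1, was at 4.65, 21.1, 5.29, 9.86, 25.6 and 25.5 CPM in PBS replicates 1 to 6 and at 1.69 to 4.93 CPM (median 2.95) with the antibody. It fell by 2.23 (log2, SE 0.356, edgeR adjusted p = 0.0122), and PBS replicate 1 alone lay within the antibody range. Inhba, the activin A subunit, fell by 2.04 (log2, adjusted p = 0.0128). Dio2, which activates thyroid hormone, fell by 3.18 (log2, adjusted p = 0.0144). Vip, a neuropeptide of the gut wall, fell by 1.10 (log2, adjusted p = 0.0188), with 47.9 to 122 CPM under PBS against 22.8 to 59.1 CPM under the antibody, and lost its call without PBS replicate 5 (-0.93, adjusted p = 0.0809) or replicate 6 (-0.99, adjusted p = 0.0732). Selp, the endothelial and platelet adhesion molecule P-selectin, fell by 2.05 (log2, adjusted p = 0.0360) and was the only one called of 18 endothelial genes. Selp lost its call without PBS replicate 2, 5 or 6 (adjusted p = 0.0881, 0.135 and 0.137).

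Epithelial genes that respond to IL-22 and IL-17 were split. Of 29 measured, 6 were lower (1.13% of all genes tested), Saa3, Lcn2, S100a8, S100a9, Cxcl1 and Cxcl5, but the list median was -0.09. Of these 6, S100a8 and S100a9 were also on the neutrophil list and Cxcl1 and Cxcl5 on the chemokine list. Saa3, an acute-phase serum amyloid gene, was at 69.9, 389 and 926 CPM (lowest, median and highest) with PBS and 4.05, 46.2 and 99.4 CPM with the antibody. It fell by 3.22 (log2, SE 0.686, edgeR adjusted p = 0.0215), with fractional counts in every library. Saa3 lost its call without PBS replicate 5 (-2.84, adjusted p = 0.0825) or replicate 6 (-3.02, adjusted p = 0.0703). Reg3b, an antimicrobial lectin induced by IL-22, was at 767 CPM in PBS replicate 2, at 1.37 to 20.1 CPM in the other PBS libraries and at 0.319 to 41.1 CPM with the antibody, and was not called.

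The genes of the blocked pathway itself showed no call. None of 14 genes for IL-12 and IL-23 subunits, receptors and signal proteins passed, with a median of -0.31 and a lowest edgeR adjusted p of 0.287. Over all genes tested 1.15% were called, so having no call does not set a list of 14 genes apart. At an unadjusted p under 0.05 there was 1, and DESeq2 and limma-voom called 0. Il12b was at 0.119, 1.72 and 3.18 CPM (lowest, median and highest) with PBS and 0.492, 0.690 and 1.62 CPM with the antibody, a log2 fold change of -0.98 (SE 0.481, adjusted p = 0.417). Il23a, the IL-23 subunit, was under the filter, with 3 to 12 counts per PBS library and 4 to 8 counts per antibody library. Stat3, the signal transducer of IL-23 and of the IL-6 family, was at 230 to 357 CPM with PBS and 201 to 288 CPM with the antibody (log2 fold change -0.27, adjusted p = 0.287).

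Of 19 type 17 lymphocyte genes none was called by edgeR, with 3 at an unadjusted p under 0.05 and a median of -0.14. Over all genes tested 1.15% were called and 12.1% had an unadjusted p under 0.05. DESeq2 called 2 lower and limma-voom 0. Il17a came closest. It was at 1.91, 0.119, 0.361, 0.538, 8.22 and 2.73 CPM in PBS replicates 1 to 6 and at 0.125 to 0.956 CPM (median 0.293) with the antibody, and 3 of 6 PBS libraries lay above that range. Its log2 fold change was -2.57 (SE 0.682, edgeR adjusted p = 0.0660), and it passed without PBS replicate 2, the library low in T and NK cell markers (-2.82, adjusted p = 0.0400), without PBS replicate 3 (-2.79, adjusted p = 0.0257) and without PBS replicate 4 (-2.81, adjusted p = 0.0322). PBS replicates 2, 3 and 4 held its lowest PBS levels, so leaving out 1 of them lowers the fold change by itself. Without PBS replicate 5 or 6 Il17a was under the filter. It was tested in 9 of the 13 fits that left out 1 library. The part of the T and NK cell level in these values was not tested. Il17f had medians of 0.689 and 0.584 CPM (log2 fold change -1.40, adjusted p = 0.347), and its direction turned to 0.26 without PBS replicates 5 and 6. Il22 ran from 0.0597 to 1.83 CPM with PBS and from 0.0581 to 3.67 CPM with the antibody.

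Interferon gamma and its targets likewise showed no call among 30 genes, with a median of -0.30 and 25 of them negative. By edgeR 1 had an unadjusted p under 0.05, and DESeq2 and limma-voom called 0. Ifng was at 2.67, 0, 1.38, 0, 3.25 and 5.79 CPM in PBS replicates 1 to 6 and at 0 to 1.85 CPM (median 0.115) with the antibody. The groups overlapped broadly, and the log2 fold change of -2.02 had an SE of 0.994 (edgeR adjusted p = 0.419). Its target Cxcl9 varied within groups from 1.31 to 102 CPM with PBS and from 1.86 to 111 CPM with the antibody. No T and NK cell marker (20 measured, median -0.39), B cell or plasma cell marker (17 measured, median 0.02) or dendritic cell marker (14 measured, median -0.12) was called. Over all genes tested 1.15% were called. Having no call thus does not set these lists apart, the 30 interferon gamma genes included.

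**Figure D3:**
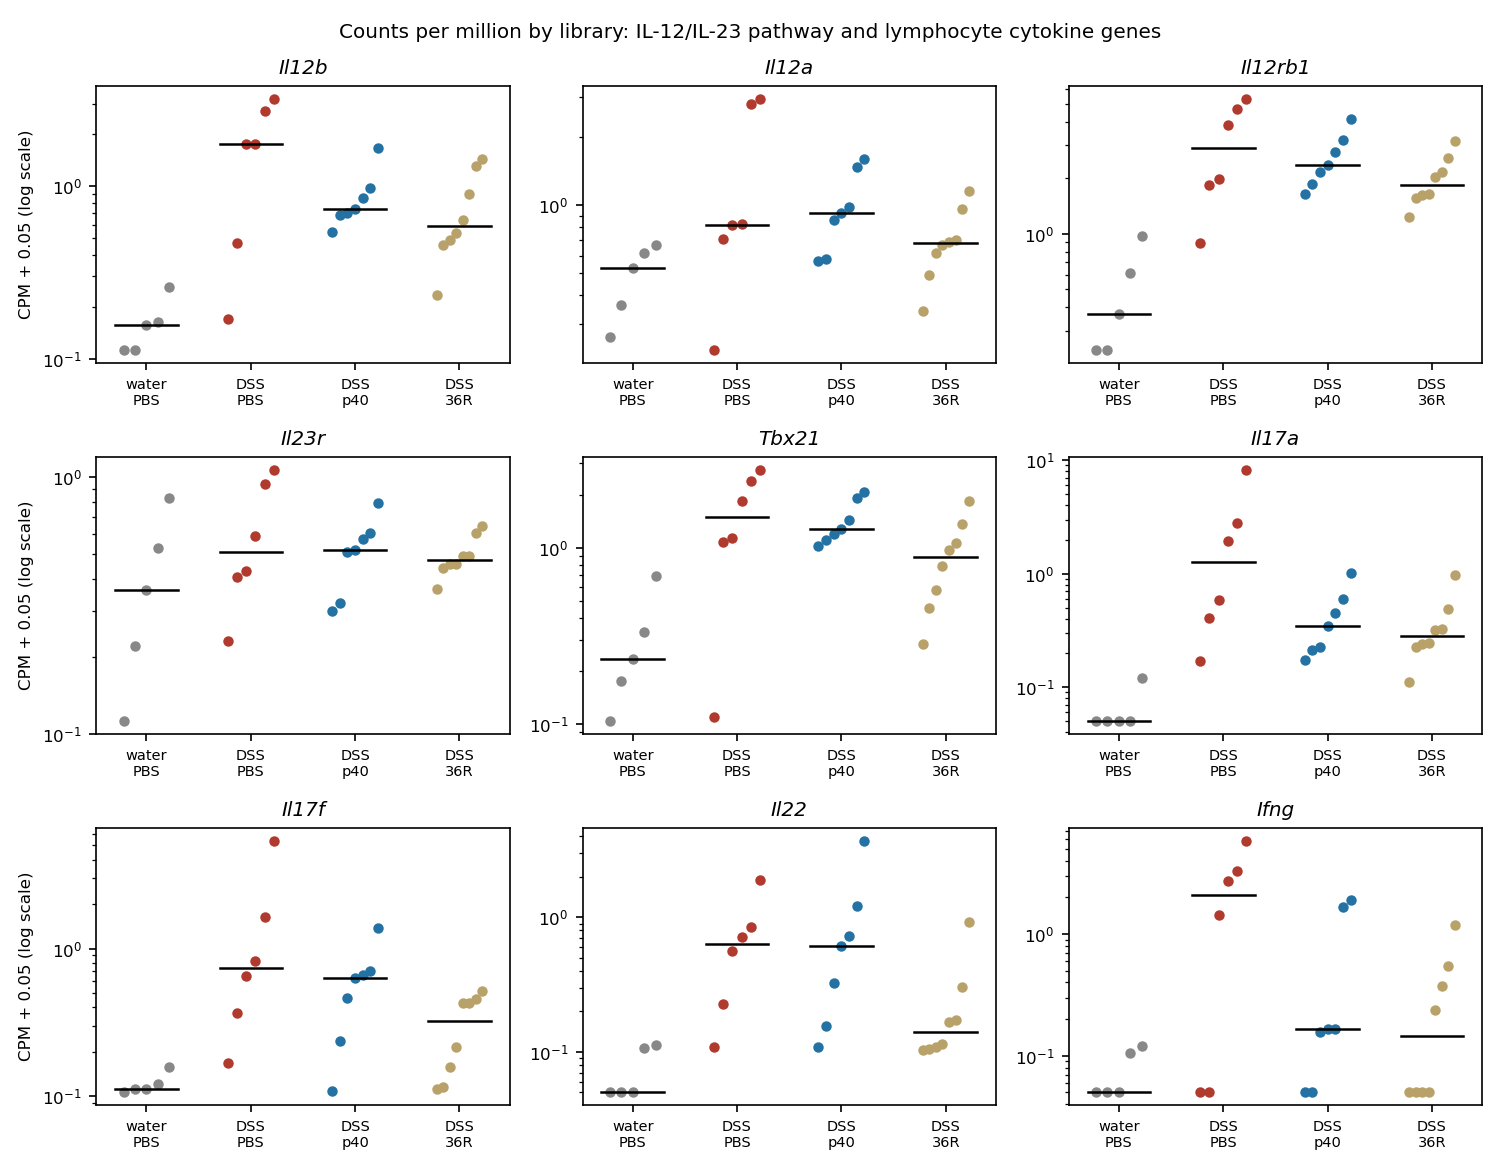
CPM plus 0.05 (vertical axis, log scale) of 9 genes of the IL-12 and IL-23 pathway and of lymphocyte cytokines in each colon library (points) by group, with the median as a bar. Il17a spans 0.119 to 8.22 CPM with PBS and 0.125 to 0.956 CPM with anti-IL-12p40, and the groups overlap for each of the 9 genes.

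Genes of the differentiated epithelium were mostly positive without a call, as were several other lists. Of 23 colonocyte transport genes 21 had a positive log2 fold change (median 0.36), of 18 goblet cell and mucus genes 17 did (median 0.38), and of 19 tight junction genes 16 did (median 0.22). The same held for 11 of 11 adipocyte genes (median 1.12), 14 of 15 smooth muscle genes (median 0.24) and 22 of 26 xenobiotic and steroid metabolism genes (median 0.41). The adipocyte sum was highest in antibody replicates 5 and 7, at 716 and 401 CPM. Its group medians were 149 CPM with PBS and 181 CPM with the antibody. Fcgbp, a mucus protein of goblet cells, was at 971, 2630 and 6670 CPM (lowest, median and highest) with PBS and 2160, 5850 and 10600 CPM with the antibody (log2 fold change 0.96, SE 0.378, edgeR adjusted p = 0.281). Car1, a colonocyte carbonic anhydrase, had medians of 201 and 417 CPM (log2 fold change 1.26, adjusted p = 0.446). The summed transport genes were lowest in PBS replicates 5 and 6, at 5040 and 2820 CPM against 7400 to 13400 CPM in the 11 other libraries. The part of these libraries' low epithelial level in the lower calls was not tested. Of 18 genes of fetal-type and wound epithelium 3 were lower (1.13% of all genes tested) and none was higher. Among the lower ones, Ereg, an EGF receptor ligand, fell by 2.17 (log2, edgeR adjusted p = 0.0199) and Spp1, osteopontin, fell by 2.52 (log2, adjusted p = 0.0480), with a value of -1.85 without PBS replicate 2 (adjusted p = 0.156). Without PBS replicate 5 both lost their calls (adjusted p = 0.0825 for Ereg and 0.101 for Spp1). The same held without PBS replicate 6 (adjusted p = 0.0652 and 0.131).

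**Figure D4:**
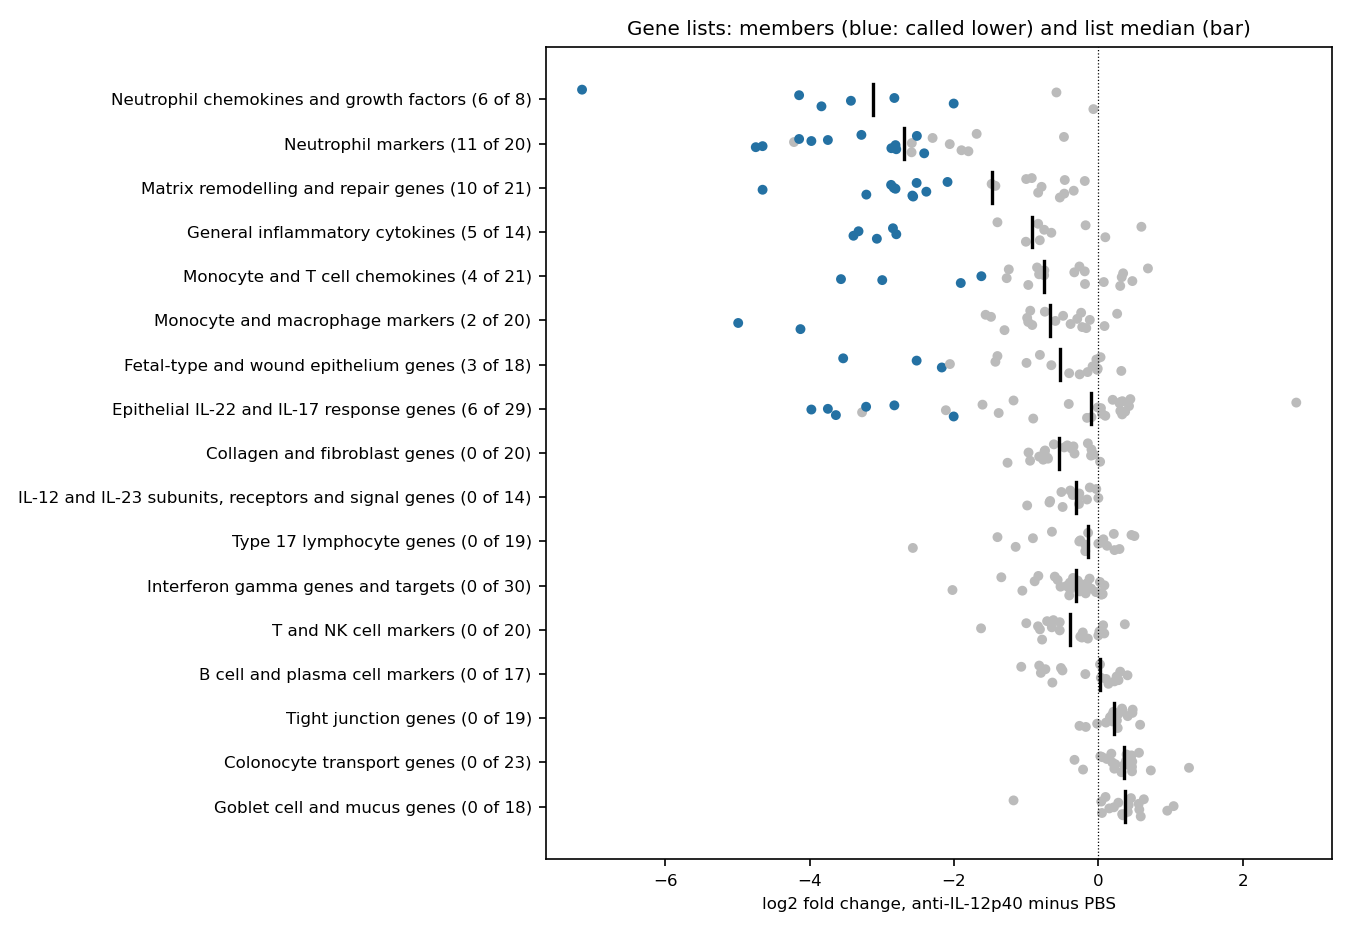
Log2 fold change (anti-IL-12p40 minus PBS, horizontal axis) of the measured members of 17 gene lists (rows), 1 point a gene, blue where called lower, with the list median as a bar and the median of all genes as a dotted line. In brackets are the members called lower of those measured: neutrophil chemokines (6 of 8) and neutrophil markers (11 of 20) lie farthest to the left, and colonocyte, goblet cell and tight junction genes lie mostly right of the line.

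Several of the largest fold changes came from 1 library. Krt5, Krt6b, Krt13 and Fat2, genes of stratified squamous epithelium, were called lower, with log2 fold changes of -7.59, -7.09, -4.83 and -4.84. Krt5 was at 0.191, 0.477, 0.902, 0.538, 11.1 and 1500 CPM in PBS replicates 1 to 6 and at 0.25 to 3.45 CPM with the antibody, so PBS replicates 5 and 6 alone lay above the antibody range. Without PBS replicate 6, Krt5 was at -1.03 (edgeR adjusted p = 0.809), Krt13 at -0.04 (adjusted p = 0.995) and Fat2 at -1.16 (adjusted p = 0.475), and Krt6b no longer passed the filter. Ltf, a neutrophil granule protein also made by glands, was at 1380 CPM in the same library. Its log2 fold change was -4.74 with that library (adjusted p = 0.0333) and -2.17 without it (adjusted p = 0.412). Lcn2, S100a8, Il6 and Csf3 were at -3.54, -3.84, -3.28 and -3.71 without PBS replicate 6, with adjusted p of 0.0270, 0.0296, 0.0293 and 0.0320. On the other side, Alb and Amy2a5, genes of liver and pancreas, were 6.88 and 7.28 higher on the log2 scale but not called (adjusted p = 0.0907 and 0.0588), with 884 CPM of Alb in antibody replicate 5 and 103 CPM of Amy2a5 in antibody replicate 2.

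**Figure D5:**
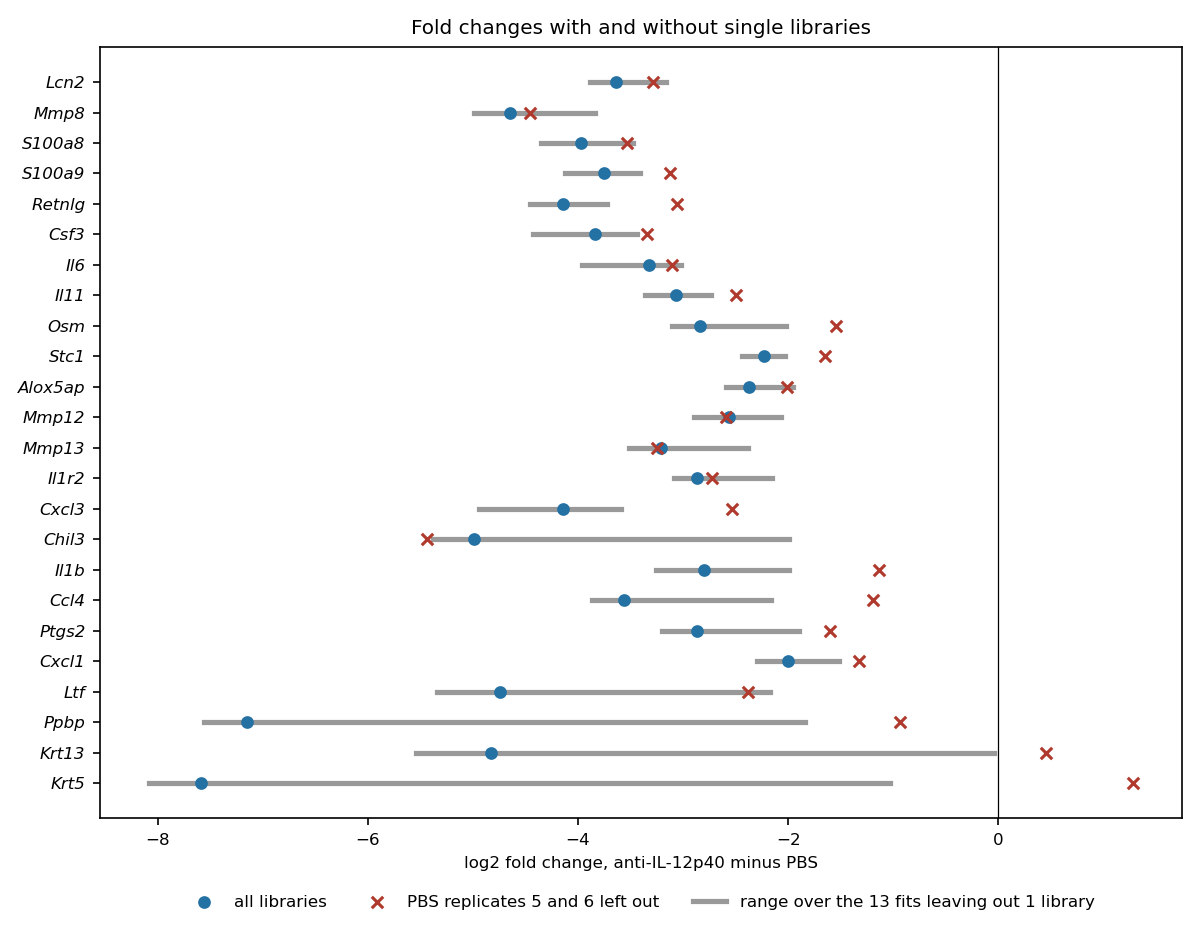
Log2 fold change (anti-IL-12p40 minus PBS, horizontal axis) of 24 genes called lower (rows), with all libraries (blue points), over the 13 fits that each leave out 1 library (grey bars, lowest to highest), and without PBS replicates 5 and 6 (red crosses). Lcn2 stays between -3.89 and -3.16 over the grey bar, whereas Krt5 and Krt13 move to 1.28 and 0.45 at the cross.

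Of the 3 genes called higher, 1 rose by more than 2-fold. Smad6, an inhibitor of BMP signalling, was at 4.94, 6.62 and 7.69 CPM (lowest, median and highest) with PBS and 6.24, 10.2 and 17.2 CPM with the antibody, and rose by 0.86 (log2, SE 0.209, edgeR adjusted p = 0.0432). Mtcp1 was at 5.01 to 8.28 CPM with PBS and 8.31 to 9.61 CPM with the antibody, groups that did not overlap. It rose by 0.38 (log2, SE 0.0955, adjusted p = 0.0489). Vstm2l, at a median of 0.641 CPM with PBS and 1.29 CPM with the antibody, rose by 1.23 (log2, adjusted p = 0.0480). None of the 3 was called without PBS replicate 2, 5 or 6, or without anti-IL-12p40 replicates 1, 3 or 5. Npas2, a clock transcription factor, was close to the threshold (log2 fold change 0.56, adjusted p = 0.0668).

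Set against the antibody to the human IL-36 receptor (8 libraries), anti-IL-12p40 gave no called gene (0.0%) by edgeR, with 552 genes (3.51%) at an unadjusted p under 0.05, and none by DESeq2 or limma-voom, with 631 and 1103 at an unadjusted p under 0.05. The genes of lowest p were Slc49a4, Zbtb44, Coq3, Smyd3 and Apoc2 among those lower with anti-IL-12p40 and Smap2, Zfp433, Pim2, Slc28a2 and Dusp12 among those higher, each with an edgeR adjusted p of 1.0. Csf3 had medians of 0.459 CPM with anti-IL-12p40 and 0.0598 CPM with the other antibody, a log2 difference of 2.68 (SE 0.850, adjusted p = 1.0). For Lcn2 the medians were 19.5 and 7.54 CPM (log2 difference 1.05, SE 0.493), and for Osm 3.33 and 1.10 CPM (log2 difference 1.19, SE 0.501). A difference that misses the threshold does not show that the antibodies acted alike.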

How the data were processed

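RNA of 26 colon samples was sequenced from strand-specific libraries, per the labels' protocols. The deposited expected counts per gene came from RSEM on mm10, per the submitters' processing notes; the RSEM version and annotation were not given in the sources used here. Of 24475 gene IDs 24375 matched a symbol, and 17.5% of values were not whole. Counts were rounded, filtered with filterByExpr, scaled by TMM and fitted for all 4 colon groups together with edgeR 4.0.16 (glmQLFit, glmQLFTest, R 4.3.3), with Benjamini-Hochberg adjustment over 15731 genes and a threshold of 0.05. SE is the log2 fold change divided by the root of F. Levels are CPM on TMM-scaled libraries. The common biological coefficient of variation was 0.29. The fit was tested on simulated data in which all groups shared the same spread and no library stood apart. That test therefore does not cover the uneven PBS libraries. Alternatives were DESeq2 1.42.0 size factors and its Wald test, no filter, limma 3.58.1 voom with sample weights, only the compared groups, and each library left out. Replicates were numbered in accession order. No pair of libraries within the PBS or the anti-IL-12p40 group under DSS agreed within sampling noise.

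Members and gene lists were chosen with earlier results of these data known. Named genes were, in each direction, the 10 called genes that changed most (absolute log2 fold change and average log2 CPM both 1 or more), the 4 list members of lowest p, a set of core pathway genes, and, between antibodies, the 5 of lowest p per direction. No called rise met that rule. All other genes named, further members of a list included, were chosen after their values were seen.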

Additional observations from a re-analysis of the deposited data

Results flagged for a closer look

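Among 218 groups of values examined, 10 had a highest or lowest library far from the rest on Dixon's criterion, and chance alone gives about 1 in 20. In PBS replicate 6 these were Krt13 at 340 CPM, Krt6b at 392 CPM, Fat2 at 46.2 CPM and the squamous epithelium sum at 3000 CPM, each far above the other PBS libraries. In PBS replicate 2 the T and NK cell marker sum, at 28.3 CPM, was far below the other PBS libraries. In anti-IL-12p40 replicate 5 Alb stood at 884 CPM and the liver gene sum at 1130 CPM. In anti-IL-12p40 replicate 2 the pancreatic amylase gene Amy2a5 stood at 103 CPM. In anti-IL-12p40 replicate 3 Hp at 5.46 CPM and Ly6g at 22.4 CPM were the low ones.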

How the results depend on the processing

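The count of 181 called genes was 355 with DESeq2's Wald test, 0 with limma-voom, 0 with only the compared groups in the fit, and 34 to 408 over the fits that left out 1 library. It was 0 without PBS replicates 5 and 6, and 0 without PBS replicate 6 and anti-IL-12p40 replicate 5, settings chosen after seeing the data, and the cause was not tested. DESeq2's size factors gave 184 and no filter 211. Directions turned without PBS replicates 5 and 6 for Il17f (0.26), Krt5 (1.28) and Krt13 (0.45), and without PBS replicate 6 and anti-IL-12p40 replicate 5 for Krt13 (0.12) and Alb (-0.01). Of 74 lower genes with alternatives listed, 70 stayed negative without PBS replicates 5 and 6. Krt5 and Krt13 turned, and Stfa2 and Krt6b were under the filter. The remaining libraries had helped to choose these genes. Against anti-IL-36R the count was 0 in all alternatives run. No paired analysis was possible because the labels give no replicate numbers.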
